A study of Mus musculus with 13 samples.

Results

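The genes described here encode the subunits of protein kinase A and a pair of enzymes that break down its activator, cyclic AMP. They are the regulatory subunit genes Prkar1a, Prkar1b, Prkar2a and Prkar2b, the catalytic subunit genes Prkaca and Prkacb, and the phosphodiesterase genes Pde4a and Pde7a. They were chosen by name for their place in this pathway, and all 8 were found among the 27071 features of the table. The study asked which RNAs bind the KH and Tudor domains of dAKAP1, an anchoring protein that ties protein kinase A to the outer mitochondrial membrane. The KHT libraries (4) hold RNA pulled down from purified total RNA with a bait made of these domains, by an antibody against the maltose-binding protein (MBP) tag of the bait. The negative control libraries (NEG, 5) came from the same pull-down with empty antibody beads, MBP alone or a bait named KHT(GDDG), and the sources used here do not say which library had which. The input libraries (IPT, 4) hold the RNA that went in. All RNA came from untreated MA-10 cells, a tumour line of mouse Leydig cells, so the bait met purified RNA without the proteins of the cell. NEG 2 held 0 counts in every feature and was left out, which left 4 libraries in each group. Nothing in the labels says that replicates came from separate cultures, so p-values measure only the spread between these libraries.

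Protein kinase A rests as a complex of paired regulatory and catalytic subunits. When cyclic AMP binds the regulatory subunits, the catalytic subunits are freed and phosphorylate their targets, and phosphodiesterases end the signal by breaking cyclic AMP down. Type I complexes hold Prkar1a or Prkar1b proteins and are largely cytosolic, while type II complexes hold Prkar2a or Prkar2b proteins and bind tightly to many anchoring proteins. In Leydig cells luteinizing hormone raises cyclic AMP, and the kinase then drives steroid synthesis. The RNA-binding domains of dAKAP1 are separate from the helix that holds the kinase, so whether they hold RNAs of the kinase itself is a question of its own.

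Total counts ran from 1955446 to 3689792 in KHT, from 1162178 to 1618998 in NEG and from 2487679 to 3085423 in IPT. A set of 9 features, each with at least 0.5% of pooled NEG counts and led by loci that collect ribosomal RNA reads, took 42.9% ± 9.88 of counts in KHT, 97.1% ± 0.964 in NEG and 32.6% ± 5.62 in IPT (n = 4 each, ± SD). The counts left outside these dominant features were 929348 to 2101632 in KHT, 31318 to 49062 in NEG and 1542713 to 2237374 in IPT. Depth for any messenger RNA was therefore low in NEG. Among KHT and IPT, libraries stood apart in a way that crossed the groups. The first principal component of 7797 genes, with 45.4% of the variance, had loadings of 0.659 in KHT 2, 0.356 in IPT 1 and 0.204 in KHT 1, against -0.00934 in KHT 4, -0.190 in KHT 3, -0.240 in IPT 3, -0.382 in IPT 4 and -0.398 in IPT 2. Values without KHT 1, KHT 2 and IPT 1, a choice made after the data were seen, are given beside the calls between groups. All 8 markers of Leydig cells were measured, and their summed level was 287 to 420 normalised CPM (counts-per-million) in KHT, 8.49 to 355 in NEG and 287 to 501 in IPT. The 4 markers of Sertoli cells summed to 3.54 to 6.16 CPM in KHT, 0 in NEG and 3.10 to 5.51 in IPT. Of 4 germ cell and 4 macrophage markers, 2 each were found in the table. The sums for both cell types were 0 in NEG and at most 3.73 CPM elsewhere. Peritubular markers summed to at most 0.525 CPM in KHT, 6.03 in NEG (1 count) and 0.746 in IPT. The 2 endothelial markers found in the table summed to 12.6 to 21.6 CPM in KHT, 28.6 to 157 in NEG and 11.9 to 27.6 in IPT. Of these, Pecam1 was called as lower in KHT than in NEG (log2 fold change -4.09, edgeR adjusted p = 5.98e-05) and as higher in NEG than in IPT (4.92, edgeR adjusted p = 3.95e-06). Pecam1 had 141 counts in KHT, 84 in NEG and 118 in IPT, and its part in the comparisons with NEG was not tested. Cdh5, the other marker found, went the other way. Its log2 fold change was 0.47 for KHT with NEG and -1.10 for NEG with IPT (edgeR adjusted p = 0.630 and 0.218).

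Among regulatory subunits, Prkar1a, the widely expressed type I subunit (ENSMUSG00000020612, chromosome 11, 109649023 to 109669663, GRCm38), stood at 50.7, 49.3, 83.1 and 63.3 normalised CPM in KHT 1 to 4. In NEG 1, 3, 4 and 5 it stood at 0, 36.2, 13.4 and 32.7 CPM, from 0, 6, 2 and 8 counts. In IPT 1 to 4 it stood at 54.9, 84.5, 71.3 and 81.4 CPM. The order of the means was NEG, KHT, IPT. KHT and IPT overlapped, with IPT 1 lower than KHT 3 and KHT 4, and every KHT library lay above every NEG library. Here and below, normalised CPM are scaled by TMM, so a NEG library's single count is worth 4.09 to 6.69 CPM.

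Prkar1b, the type I subunit best known from brain (ENSMUSG00000025855, chromosome 5, 139017304 to 139150703), was scarce. It stood at 1.84, 1.37, 1.24 and 2.73 CPM in KHT 1 to 4, at 0 in each NEG library and at 2.98, 4.51, 2.23 and 2.40 CPM in IPT 1 to 4. The KHT and IPT ranges overlapped through KHT 4 alone. The counts behind these levels were 42 in KHT and 98 in IPT. The gene overlaps the protein-coding gene Dnaaf5 in the annotation, and the sources used here do not say whether counting used strand, so reads of the pair may be mixed. Overlaps with noncoding genes or a pseudogene are annotated for Prkar1a, Prkar2a and Prkacb as well, with the same limit.

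Prkar2a, a widely expressed type II subunit (ENSMUSG00000032601, chromosome 9, 108692143 to 108750444), was the steadiest of the regulatory subunits in KHT, at 29.4, 24.4, 26.9 and 29.3 CPM. In NEG 1, 3, 4 and 5 it stood at 0, 12.1, 0 and 24.5 CPM, from 8 counts in all. In IPT it stood at 31.4, 22.4, 26.7 and 23.1 CPM. NEG 5 lay just above the lowest KHT library and inside the IPT range.

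Prkar2b, the type II subunit known from brain and fat (ENSMUSG00000002997, chromosome 12, 31958450 to 32061648), differed from library to library in both KHT and IPT. It stood at 19.8, 15.5, 8.58 and 6.95 CPM in KHT 1 to 4. In NEG it had 2 counts, both in NEG 1 (8.49 CPM), and 0 in the other libraries. In IPT 1 to 4 it stood at 16.1, 8.74, 9.38 and 9.51 CPM. KHT 1, IPT 1 and KHT 2 were the high libraries, and the remaining KHT and IPT libraries lay between 6.95 and 9.51 CPM.

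Prkaca, the main catalytic subunit gene (ENSMUSG00000005469, chromosome 8, 83972978 to 83996444), stood at 48.2, 51.4, 56.1 and 49.4 CPM in KHT. In NEG 1, 3, 4 and 5 it stood at 0, 0, 26.8 and 61.3 CPM, the last from 15 counts. In IPT it stood at 46.9, 58.1, 57.2 and 57.6 CPM. NEG 5 was therefore above every KHT and IPT library, while NEG 1 and NEG 3 had no count.

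Prkacb, the second catalytic subunit gene (ENSMUSG00000005034, chromosome 3, 146729579 to 146812946), stood at 38.5, 38.4, 29.9 and 31.8 CPM in KHT. It had the highest NEG mean relative to KHT among the 8 genes, with 0, 24.1, 26.8 and 36.8 CPM in NEG 1, 3, 4 and 5. In IPT it stood at 37.7, 31.8, 34.8 and 32.1 CPM. KHT and IPT covered nearly the same range, and NEG 5 lay within it.

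The phosphodiesterase RNAs were rare. Pde4a (ENSMUSG00000032177, chromosome 9, 21165700 to 21213248), of the cyclic AMP-specific family that protein kinase A itself can activate, stood at 2.89, 4.57, 5.20 and 2.24 CPM in KHT, at 0 in each NEG library and at 4.79, 2.40, 5.36 and 2.93 CPM in IPT. Pde7a (ENSMUSG00000069094, chromosome 3, 19223108 to 19311322), of a cyclic AMP-specific family with high affinity, had 9, 4, 3 and 6 counts in KHT 1 to 4, none in NEG and 10, 12, 2 and 11 counts in IPT 1 to 4. For both genes the KHT and IPT ranges overlapped. Pde7a was the 1 gene of the 8 that did not pass the filter on low counts, so 7 were tested.

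**Figure D1:**
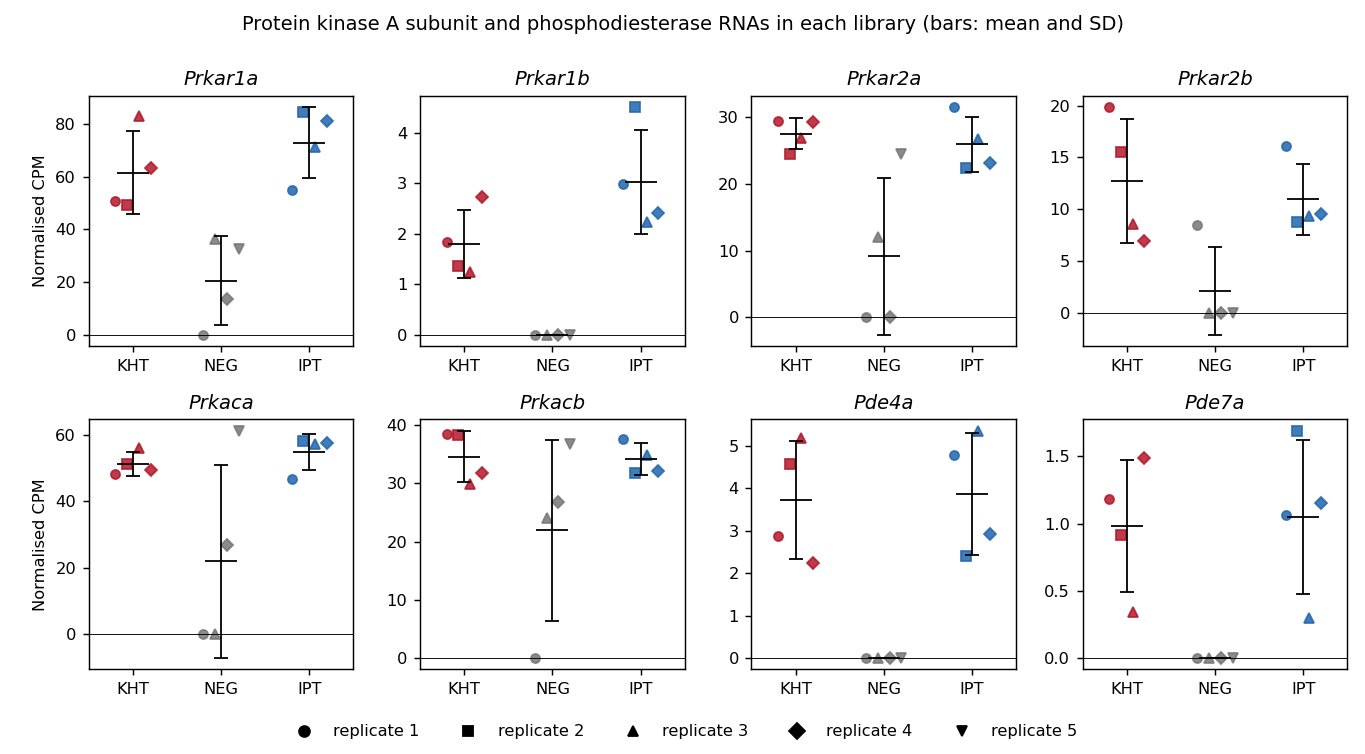
Normalised CPM (vertical axis, linear) of each gene in the KHT, NEG and IPT libraries, with 1 point per library, marker shape for replicate number, and bars for the mean and SD (n = 4 each). KHT and IPT overlap for all 8 genes, Prkar1b, Pde4a and Pde7a are at 0 in NEG, and Prkar2b is highest in KHT 1, IPT 1 and KHT 2.

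The comparison of KHT with IPT asks which RNAs took a larger or smaller share of the pull-down than of the RNA that went in. None of the 7 tested genes passed in either direction, at an adjusted p under 0.05 in edgeR's quasi-likelihood test over all 10714 genes. Of all genes tested, 1 was called, higher in KHT, which is 0.00933%. None of the 7 had an unadjusted p under 0.05 in edgeR, where 1.63% of all genes did. DESeq2 and limma voom called none either, and few of all genes. DESeq2 called 0.0374% as higher and 0.0281% as lower in KHT, and limma voom 0.00933% and 0.0747%. The median log2 fold change of the 7 was -0.04, beside 0.01 over all genes.

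Prkar1a averaged 61.6 ± 15.7 CPM in KHT and 73.0 ± 13.4 in IPT (n = 4 each, ± SD), a log2 fold change of -0.24 (SE 0.53, edgeR adjusted p = 1.00). Prkar1b averaged 1.80 ± 0.675 CPM in KHT and 3.03 ± 1.04 in IPT, the lowest log2 fold change of the 7 at -0.78 (SE 0.44, unadjusted p = 0.0940 and adjusted p = 1.00 in edgeR), and 1.56% of all genes tested had a lower one. For Prkar2a the means were 27.5 ± 2.36 CPM in KHT and 25.9 ± 4.13 in IPT, a log2 fold change of 0.09 (SE 0.35). For Prkar2b they were 12.7 ± 6.02 CPM in KHT and 10.9 ± 3.45 in IPT, a log2 fold change of 0.22 (SE 0.35). Both type II genes had an edgeR adjusted p of 1.00. These differences were smaller than the spread between libraries of a group, apart from that of Prkar1b, which exceeded both SDs.

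Prkaca averaged 51.3 ± 3.49 CPM in KHT and 54.9 ± 5.39 in IPT, with a log2 fold change of -0.10, and Prkacb 34.6 ± 4.42 in KHT and 34.1 ± 2.75 in IPT, with 0.02 (n = 4 each, ± SD; edgeR adjusted p = 1.00 each). Pde4a averaged 3.72 ± 1.39 CPM in KHT and 3.87 ± 1.43 in IPT, with a log2 fold change of -0.04. Pde7a, not tested, had 22 counts in KHT and 35 in IPT, and its ratio was 0.828 (95% exact binomial counting interval 0.463 to 1.45, counting error only). In the fit of all groups, the 95% intervals of the log2 fold change ran from -1.24 to 1.04 for Prkaca and from -0.79 to 0.83 for Prkacb. In a fit of KHT and IPT alone they were narrower, from -0.37 to 0.18 for Prkaca, from -0.27 to 0.33 for Prkacb and from -0.23 to 0.42 for Prkar2a. Those limits are folds of 0.772 to 1.14 for Prkaca, 0.827 to 1.25 for Prkacb and 0.851 to 1.34 for Prkar2a. Prkar1b had the widest interval of that fit, from -1.64 to 0.08. Without KHT 1, KHT 2 and IPT 1, none of the 7 passed in edgeR. Of all genes, 0.0927% were called as higher and 0.0464% as lower in KHT in that fit. Its log2 fold change was -0.11 for Prkar1a, -0.69 for Prkar1b and -0.22 for Prkar2b, the last turned in direction.

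**Figure D2:**
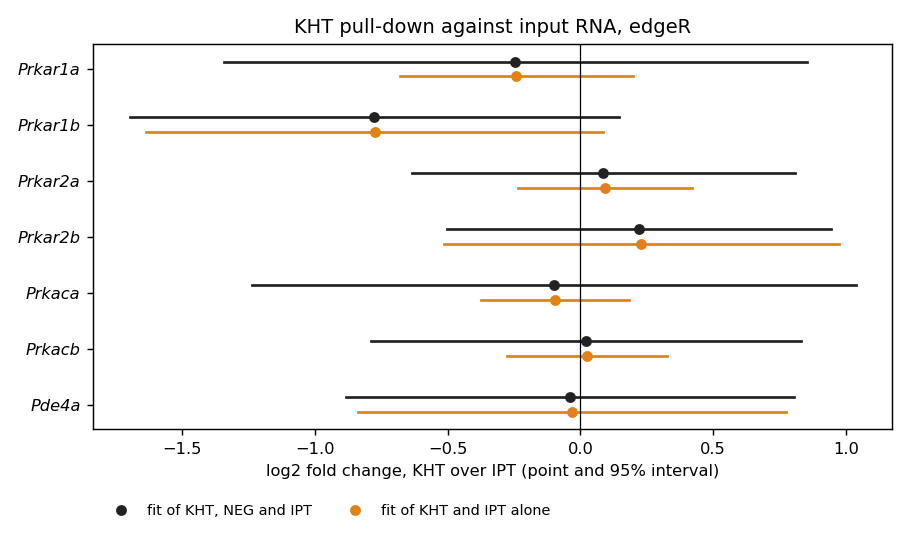
Log2 fold change of KHT over IPT (horizontal axis) for the 7 genes tested, with points for the edgeR estimate and lines for the 95% interval, in the fit of all groups (black, upper) and of KHT and IPT alone (orange, lower). Every interval includes 0, and the catalytic subunit genes and Prkar2a have the narrowest intervals in the fit of KHT and IPT alone.

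Set against NEG, the KHT values show which RNAs took a larger or smaller share of the pull-down than of control pull-downs. TMM factors were 0.0994 to 0.201 in NEG and 2.05 to 3.10 in KHT, so differences shared by most genes are scaled out in part. Some remained, with a median log2 fold change over all genes of 1.73 (0.94 with the bounds used below). Because of the scaling, the test cannot show whether these RNAs came down beyond controls in total amount. None of the 7 tested genes passed in edgeR, while 31.0% of all genes tested were called as higher and 2.72% as lower in KHT. The fitted log2 fold changes were positive for all 7, with a median of 1.60 beside 1.73 over all genes, or 1.16 beside 0.94 when each gene without a NEG count takes its lower bound. Of the 7, 4 had an unadjusted p under 0.05 in edgeR (Prkar1a, Prkar2a, Prkar2b and Pde4a), where 48.8% of all genes did. DESeq2 called 4 of them, Prkar1a, Prkar2a, Prkar2b and Prkaca, and limma voom called Prkar2b. Of all genes, DESeq2 called 43.2% and limma voom 32.7% as higher in KHT. Without KHT 1, KHT 2 and IPT 1, edgeR called none of the 7, and 21.7% of all genes as higher.

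By gene, the difference was widest among the measured ratios for Prkar2b, with 12.7 ± 6.02 CPM in KHT and 2.12 ± 4.24 in NEG (n = 4 each, ± SD; log2 fold change 2.34, SE 0.95, edgeR adjusted p = 0.0600). With 323 counts in KHT and 2 in NEG, its count ratio was 5.16 (95% exact binomial counting interval 1.42 to 42.8). Without KHT 1, KHT 2 and IPT 1, its log2 fold change was 1.66 (edgeR adjusted p = 0.187). Prkar1a averaged 61.6 ± 15.7 CPM in KHT and 20.6 ± 17.0 in NEG (1.60, SE 0.65, edgeR adjusted p = 0.0612). Prkar2a averaged 27.5 ± 2.36 CPM in KHT and 9.14 ± 11.7 in NEG (1.47, SE 0.61, edgeR adjusted p = 0.0636). The fitted values of the catalytic subunits were smaller. Prkaca averaged 51.3 ± 3.49 CPM in KHT and 22.0 ± 29.1 in NEG (1.16, SE 0.68, edgeR adjusted p = 0.170), and Prkacb 34.6 ± 4.42 in KHT and 21.9 ± 15.6 in NEG (0.69, SE 0.54, edgeR adjusted p = 0.294). Whether the catalytic and regulatory genes differ in this was not tested. Prkar1b, Pde4a and Pde7a were at 0 in NEG. A limit of 3 counts, summed over NEG, is worth 3.77 CPM, which lies above the KHT means of Prkar1b (1.80) and Pde7a (0.981), so no fold could be given for these genes at this depth. Pde4a lay about at that limit, with a KHT mean of 3.72 CPM just below it. From its 97 counts summed over KHT, the bound was 1.03-fold, which does not set it apart from NEG. Its edgeR adjusted p was 0.0596.

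The NEG libraries were unlike each other in these genes. The 8 genes together had 1466, 814, 1872 and 754 counts in KHT 1 to 4, 2, 12, 10 and 38 counts in NEG 1, 3, 4 and 5, and 1838, 1520, 1392 and 2011 counts in IPT 1 to 4. As CPM of the counts outside the dominant features, this was 776 to 891 in KHT, 63.9, 305, 289 and 775 in NEG 1, 3, 4 and 5, and 838 to 931 in IPT. NEG 5 thus lay just under the lowest KHT library on that scale, and the other NEG libraries far below. NEG 5 also had the most features with a count, 7047, against 2173, 4082 and 3355 in NEG 1, 3 and 4, and the part of its bait or RNA content in these values was not tested. Without NEG 5, edgeR called 3 of the 7 genes as higher in KHT: Prkar1a (log2 fold change 2.09, adjusted p = 0.0152), Prkar2a (2.97, 0.00345) and Prkaca (2.84, 0.00460). In that fit 47.2% of all genes were called as higher in KHT, and the median log2 fold change over all genes was 6.24. With NEG 5 that median was 1.73. Genes left without a NEG count have fitted values that depend on the prior count added in the fit. The median of 6.24 is therefore no scale for the values of these 3 genes. Without NEG 1 it called Prkar2b (adjusted p = 0.0412), whose sole NEG counts lie there, and without KHT 4 it called Prkar2b (0.0420) and Pde4a (0.0497). These fits called 15.0% and 26.7% of all genes as higher in KHT. With total counts as library size, all 7 tested genes were called as higher in KHT, with log2 fold changes of 4.71 to 7.36 (for Prkar1b and Pde4a, at 0 in NEG, these depend on the prior count), but so were 10426 of 10714 genes, and the median over all genes moved to 5.66. Relative to that median, Prkacb (4.71), Prkaca (5.09), Prkar2a (5.44) and Prkar1a (5.57) lay below, and Prkar2b (6.30) above. Prkar1b (6.28) and Pde4a (7.36) cannot be placed, being at 0 in NEG. Of the 10714 genes, 2987 had no count in KHT or in NEG, so their fitted values also depend on the prior count. The median of 5.66 includes these genes, so the places of the genes below or above it carry the same limit.

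**Figure D3:**
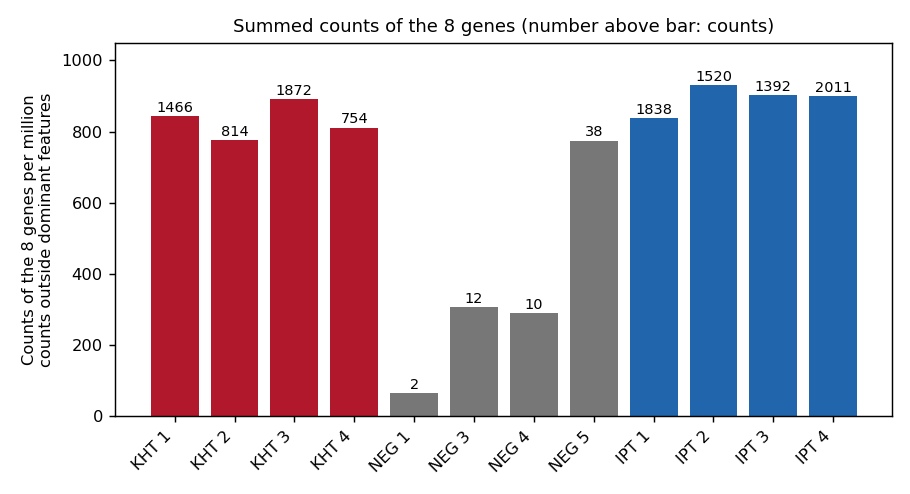
Summed counts of the 8 genes as CPM of the counts outside the dominant features (vertical axis) in each KHT, NEG and IPT library, with the counts themselves above the bars. NEG 1, 3 and 4 lie between 63.9 and 305, and NEG 5, from 38 counts, lies at 775, close to the KHT libraries (776 to 891) and the IPT libraries (838 to 931).

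For NEG with IPT, which shares its control libraries with the comparisons above, 1 of the 7 genes passed as lower in NEG, where 32.5% of all genes tested did. Prkar1a averaged 20.6 ± 17.0 CPM in NEG and 73.0 ± 13.4 in IPT (n = 4 each, ± SD; log2 fold change -1.84, SE 0.65, edgeR adjusted p = 0.0347), and the groups did not overlap. This call ended without NEG 4 (edgeR adjusted p = 0.0719), IPT 2 (0.0714), IPT 3 (0.0636) or IPT 4 (0.0698), and also without KHT 1, KHT 2 and IPT 1 together (0.114). The fitted values were -1.38 for Prkar2a, -2.12 for Prkar2b, -1.26 for Prkaca and -0.66 for Prkacb, with edgeR adjusted p from 0.0762 to 0.307. Without NEG 5, Prkar1a, Prkar2a and Prkaca were called as lower in NEG, where 47.4% of all genes were. Without NEG 1, Prkar1a and Prkar2b were called, where 15.6% of all genes were. Without IPT 2, Pde4a was the single gene of the 7 called (edgeR adjusted p = 0.0483), beside 26.8% of all genes.

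Ratios of counts within a library do not depend on its scaling, and none of 5 such ratios passed a test between KHT and IPT. The log2 ratio of Prkaca to Prkacb averaged 0.57 ± 0.26 in KHT and 0.68 ± 0.26 in IPT (n = 4 each, ± SD; two-sided exact permutation p = 0.571, adjusted p = 0.943 over the 5 ratios). For Prkar1a to Prkar2a it averaged 1.13 ± 0.36 in KHT and 1.49 ± 0.50 in IPT (exact permutation p = 0.314, adjusted p = 0.786). For Prkar2a to Prkar2b it averaged 1.23 ± 0.74 in KHT and 1.27 ± 0.23 in IPT (exact permutation p = 0.886, adjusted p = 0.943). For Prkar1a to Prkar1b it averaged 5.07 ± 0.67 in KHT and 4.60 ± 0.47 in IPT (exact permutation p = 0.286, adjusted p = 0.786), and for Pde4a to Pde7a 1.93 ± 1.38 in KHT and 1.94 ± 1.44 in IPT (exact permutation p = 0.943, adjusted p = 0.943). With 4 libraries a side, the unadjusted p of such a test cannot go below 0.0286. A single ratio at that floor would not pass after adjustment over the 5 ratios. The lack of a call therefore does not show that the ratios are alike in KHT and IPT. The unadjusted exact permutation p ran from 0.286 to 0.943, so no ratio was at the floor. In NEG the counts were too few for ratios, with 19 of Prkaca and 17 of Prkacb in all.

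Within the groups, several ratios were lowest in the same libraries. Prkar1a had 2.56, 3.18, 9.68 and 9.11 counts per count of Prkar2b in KHT 1 to 4 and 3.41, 9.68, 7.60 and 8.56 in IPT 1 to 4, a ratio added after its values were seen and given with no test. KHT 1, KHT 2 and IPT 1 lay at 2.56 to 3.41 and the other 5 libraries at 7.60 to 9.68, with none between. The same 3 libraries had the lowest ratios of Prkaca to Prkacb, at 1.25, 1.34 and 1.24, where the others had 1.55 to 1.88. They also had the lowest ratios of Prkar2a to Prkar2b, at 1.48, 1.57 and 1.95, where the others had 2.43 to 4.21. The ratios of Prkar1a to Prkar1b and of Pde4a to Pde7a, which rest on fewer counts, did not follow this order. Prkar1a to Prkar1b was 27.6, 36.0, 66.9 and 23.2 in KHT 1 to 4 and 18.4, 18.8, 31.9 and 33.9 in IPT 1 to 4. Pde4a to Pde7a was 2.44, 5.00, 15.3 and 1.5 in KHT 1 to 4 and 4.50, 1.42, 18 and 2.55 in IPT 1 to 4. As shares of all regulatory subunit counts, Prkar2b took 19.5%, 17.1%, 7.16% and 6.80% in KHT 1 to 4, and 15.3%, 7.27%, 8.56% and 8.17% in IPT 1 to 4. Prkar1a took 49.8%, 54.4%, 69.4% and 61.9% in KHT 1 to 4, and 52.1%, 70.3%, 65.1% and 69.9% in IPT 1 to 4. These 3 libraries are the ones with the highest loadings on the first principal component, and their part in other results was not tested beyond leaving them out. In such bulk RNA, fewer cells with a transcript and less of it per cell cannot be told apart.

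**Figure D4:**
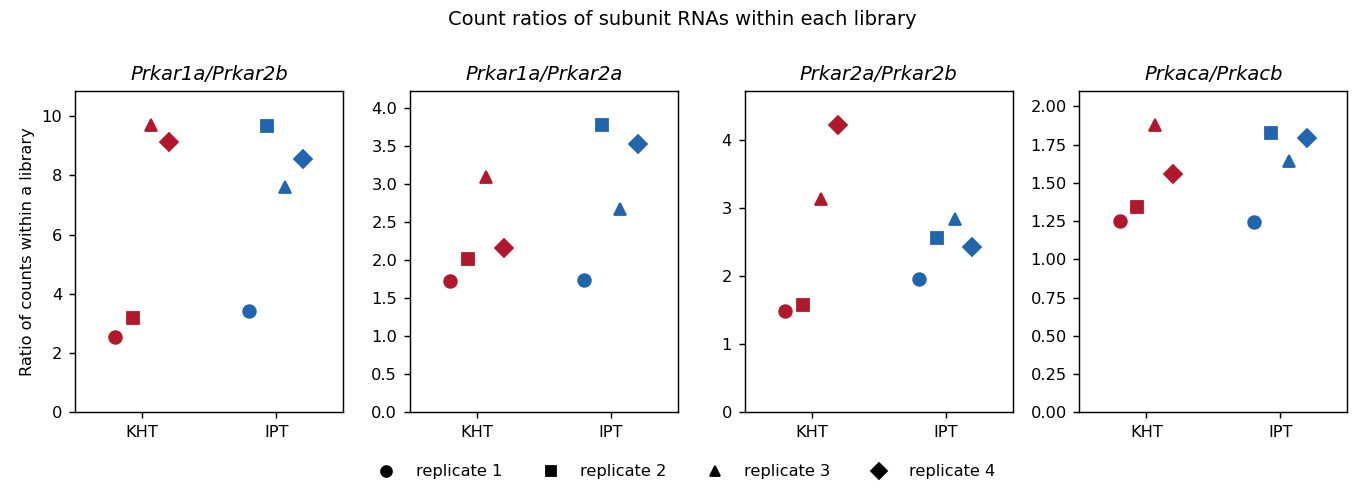
Ratio of the counts of a pair of subunit genes within each library (vertical axes, linear from 0) for KHT (red) and IPT (blue), with 1 point per library and marker shape for replicate number. KHT 1, KHT 2 and IPT 1 have the lowest ratios of Prkar1a to Prkar2b (2.56 to 3.41, against 7.60 to 9.68 in the others), of Prkar2a to Prkar2b and of Prkaca to Prkacb.

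Other genes of the cyclic AMP pathway were read in 7 lists of 67 genes, of which 37 could be tested. None of the 37 passed between KHT and IPT in edgeR, DESeq2 or limma voom at an adjusted p under 0.05. These called few of all genes (0.00933% in edgeR). None of the 37 had an unadjusted p under 0.05 in edgeR, where 1.63% of all genes did. Their median log2 fold change was -0.000275 beside 0.01 over all genes. Between KHT and NEG, 11 of the 37 were higher in KHT and none was lower, a share close to that of all genes (31.0%). The receptor and G protein list held 4 of the 11. Gnas, the stimulatory G protein that turns on adenylyl cyclase, averaged 65.0 ± 9.48 CPM in KHT and 2.04 ± 4.09 in NEG (n = 4 each, ± SD; log2 fold change 4.70, SE 0.83, edgeR adjusted p = 0.00195), with 1628 counts in KHT and 2 in NEG (count ratio 26.0, 95% exact binomial counting interval 7.20 to 215). Gnai3, an inhibitory G protein, averaged 35.9 ± 2.97 CPM in KHT and 5.11 ± 10.2 in NEG (2.54, edgeR adjusted p = 0.0128), and Gnb2, a beta subunit, 75.5 ± 8.43 in KHT and 17.8 ± 12.2 in NEG (2.15, edgeR adjusted p = 0.0200). All NEG counts of Gnas and Gnai3 lay in NEG 5. Without it both are at 0 in NEG, and their fitted log2 fold changes of 11.43 for Gnas and 10.57 for Gnai3 depend on the prior count. The Gnb2 call ended without KHT 1, KHT 2 and IPT 1 (edgeR adjusted p = 0.113) and in the fit of KHT and NEG alone (0.0967).

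Of 2 adenylyl cyclase genes tested, Adcy9 was higher in KHT, with 386 counts in KHT and 1 in NEG (count ratio 12.3, 95% exact binomial counting interval 2.20 to 489; edgeR adjusted p = 0.00880). The 1 count lay in NEG 5, and the fitted log2 fold change was 3.60 with that library and 9.35 without it. Of 11 genes of the CREB family and its coactivators, 6 were higher in KHT than in NEG. Creb1, the transcription factor that the kinase phosphorylates, had 423 counts in KHT and none in NEG, and was at least 4.51-fold higher against the same limit (edgeR adjusted p = 0.00739). Crtc1, a CREB coactivator, was at least 2.69-fold higher (edgeR adjusted p = 0.00896), and Sik3, a kinase that restrains these coactivators, had 320 counts in KHT and 1 in NEG (count ratio 10.2, 95% exact binomial counting interval 1.82 to 405; edgeR adjusted p = 0.0130). That count lay in NEG 3, and the fitted log2 fold change was 3.27 with that library and 9.04 without it. None of 8 phosphatase, 3 other phosphodiesterase, 2 kinase inhibitor and 3 other cyclic AMP-dependent genes passed in edgeR. Without NEG 5, 18 of the 37 pathway genes were called, near the share over all genes in that fit (47.2% higher in KHT).

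The genes most like each subunit in pattern were found by Pearson's r of log2(normalised CPM + 1) over the 8 KHT and IPT libraries, among 7797 genes that averaged 5 CPM or more. These are the highest of many values over 8 libraries of 2 groups, and they are given as a description. For Prkar1a they were Ttk (r = 0.989) and Sparc (0.988), and for Prkar2a Sec11a (0.949) and Pi4k2b (0.946). For Prkar2b they were Vps13d (0.988) and Nfu1 (0.984). For Prkaca they were Enah (0.977) and Impdh1 (0.977), and for Prkacb Sun1 (0.989) and Rpl13a (0.973). Prkar1b, Pde4a and Pde7a were below 5 CPM. No gene of the 8 was nearest to another of the 8.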

How the data were processed

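The deposited values are unscaled estimated counts of genes for 13 libraries, and the submitters' processing notes name kallisto, DESeq2, GRCm38 and mm10, without versions or roles. The step to gene values is not given in these sources. Per the labels, the kit was stranded and removed ribosomal RNA, though the molecule field names polyA RNA. Libraries were grouped by title, since the description of the KHT samples speaks of negative controls while their treatment and titles name KHT. All values were whole numbers, so none was rounded. Values of 2 (24545) outnumbered values of 1 (9352), so the values may count both mates of a pair, which would make counting intervals and floors too narrow.

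Genes were tested in 12 libraries with edgeR 4.0.16 in R 4.3.3 (TMM, filterByExpr, robust quasi-likelihood fit of 3 groups, two-sided, Benjamini-Hochberg over 10714 genes, threshold 0.05). Standard errors were the log2 fold change over the square root of F. DESeq2 1.42.0, limma 3.58.1 (voom), other scalings, filters and left-out libraries were alternatives. Normalised CPM used TMM effective library sizes. Ratios within a library used counts plus 0.5 and exact permutation tests over 70 assignments. A gene name table gave symbols for 27004 of 27071 identifiers, and RefSeq on GRCm38 gave coordinates. Intervals and floors cover counting error only. The genes and lists were chosen with earlier results of these data known. The rule for named genes took all 8 genes, up to 3 genes of each pathway list past the threshold by smallest p, and the 2 genes nearest in pattern to each gene with a mean of at least 5 CPM.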

Additional observations from a re-analysis of the deposited data

Results flagged for a closer look

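In 34 groups of 4 libraries, the gap of the highest or lowest library to its nearest neighbour was set against the range, and 3 stood out beyond Dixon's 95% critical value, where chance gives about 1 in 20. Prkar2b at 8.49 normalised CPM in NEG 1 was the sole NEG value above 0, from 2 counts. With the other NEG libraries at 0, its gap equals its range, so any count there would have been flagged. Prkar2b in IPT 1, at 16.1 CPM, lay above the other IPT libraries, which ended at 9.51 CPM. Prkaca in IPT 1, at 46.9 CPM, lay below the others, which began at 57.2 CPM.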

How the results depend on the processing

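None of the 7 genes was called between KHT and IPT under any other setting run or with any library left out (0 to 0). Across these settings at most 0.159% of all genes were called as higher and 0.0747% as lower in KHT. Not every fit held all 7. Prkar1b and Pde4a were not tested at a mean of at least 10 CPM, nor Prkar1b with values halved. None of the 37 pathway genes was called either (0 to 0). No ratio passed with a pseudocount of 1, where a single ratio could again not pass after adjustment. With any library left out none passed (0 to 0), but 3 libraries against 4 are too few for this test to reach 0.05. For KHT with NEG, where edgeR called 0 of the 7 genes, it called 1 with RLE size factors (33.6% of all genes higher in KHT), 1 with values halved (26.5%), 2 with no filter on low counts (14.1%) and 7 with total counts (97.3%). DESeq2 called 4 (43.2%), limma voom 1 (32.7%), and leaving out each library gave 0 to 3. For NEG with IPT, where edgeR called 1, the count was 2 with RLE size factors (37.0% of all genes lower in NEG), 7 with total counts (97.3%), 3 with no filter (15.1%), 0 at a mean of at least 10 CPM (31.7%), 3 in DESeq2 (45%), 0 in limma voom (31.7%), 0 in the fit of NEG and IPT alone (21.9%), 0 without KHT 1, KHT 2 and IPT 1 (24.9%), and 0 to 3 with each library left out. Beside these shares, pathway genes called, 11 in either comparison, became 37 with total counts in each, 20 and 19 in DESeq2, 18 for NEG with IPT with no filter, and, with each library left out, 8 to 18 for KHT with NEG and 9 to 19 for NEG with IPT. The cause of these moves was not tested. The replicate block, in a fit where NEG 5 is the sole library of its number, gave 3 genes called in KHT with NEG, 3 in NEG with IPT and 0 in KHT with IPT, with 18 and 19 pathway genes called, beside 47.1% of all genes higher in KHT and 46.9% lower in NEG. Replicate numbers did not pair KHT and IPT (correlations of deviations 0.214, -0.334, 0.222 and 0.117 for numbers 1 to 4), and KHT 2, KHT 3 and KHT 4 correlated best with an IPT library of another number.

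Prkar1b for KHT with NEG, at 0 in NEG, had a fitted log2 fold change of 6.12 in edgeR and -0.48 in limma voom, neither past the threshold. For KHT with IPT, Prkar2a was -0.16 with total counts, and Prkacb -0.023 with RLE size factors, -0.22 with total counts, -0.022 in DESeq2 and -0.094 without KHT 1, KHT 2 and IPT 1, where Prkar2b was -0.22 and Pde4a 0.14. With each library left out, Prkar2b ranged from -0.090 to 0.47, Prkacb from -0.034 to 0.084 and Pde4a from -0.26 to 0.15, the log2 ratio difference of Prkar2a to Prkar2b from -0.32 to 0.18, and that of Pde4a to Pde7a from -0.62 to 0.62. Depth limits NEG, where a library held at most 38 counts of the 8 genes.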

Other observations

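Among other genes that handle cyclic AMP, 13 of 14 further phosphodiesterase genes were in the table and 3 passed the filter, and the genes of this paragraph were chosen after their values were seen. Pde8b, of a high-affinity family that limits steroid synthesis in mouse adrenal and Leydig cells, averaged 16.1 ± 0.482 CPM in KHT, 8.40 ± 6.02 in NEG and 16.1 ± 2.10 in IPT (n = 4 each, ± SD), with an edgeR adjusted p of 0.128 against NEG and 1.00 against IPT in KHT. Its relative Pde8a averaged 10.7 ± 2.72 CPM in KHT, 4.12 ± 5.78 in NEG and 9.90 ± 2.73 in IPT. The kinase inhibitor gene Pkib averaged 2.21 ± 0.227 CPM in KHT and 2.04 ± 4.09 in NEG, from 55 and 2 counts (count ratio 0.879, 95% exact binomial counting interval 0.232 to 7.44). Pkig averaged 3.27 ± 0.851 CPM in KHT and 2.04 ± 4.09 in NEG, from 78 and 2 counts (count ratio 1.25, interval 0.334 to 10.48). Prkx, a kinase related to the catalytic subunits, averaged 5.83 ± 1.75 CPM in KHT and 10.2 ± 20.4 in NEG, where all 10 counts lay in NEG 5 (log2 fold change -1.07, edgeR adjusted p = 0.263).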
